A study of Ovis aries with 10 samples.

Results

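Of the 8721 circular RNAs (circRNAs) listed in the 10 sheep muscle libraries, 3270 (37.5%) had an entry in a single library, and these single-library circRNAs are described here. They were chosen by the deposited list of libraries beside each circRNA: exactly 1 of the 10 library names had to be present. The smallest listed count is 2 junction reads and the filters are not given, so a library without an entry may still have held reads. Together the 3270 held 13352 of 445393 junction reads (3.00%). The other 5451 circRNAs were listed in 2 or more libraries and are called more widely listed below.

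A circRNA forms when a splice donor is joined to an acceptor that lies upstream of it, which closes 1 or more exons into a ring. Reads across that backward junction identify it, and a gene can give several rings that reuse the same donor or acceptor. Skeletal muscle expresses very long genes with many exons, such as the titin gene TTN and the nebulin gene NEB, which are known hosts of circRNAs.

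The series compared small-tailed Han sheep after sham surgery (5 libraries) with ovariectomized ones, which lose the main source of estrogen (5 libraries), to ask how estrogen acts on muscle growth in female animals. The labels give the back muscle longissimus dorsi as the source, call the material primary myoblasts, and describe an estradiol series in culture without a dose for any library, so whole muscle and cultured cells cannot be told apart from them. No age and no shared allele or agent is given, and nothing in the labels says that the libraries come from separate animals, so each p-value measures the spread between these libraries. A listed circRNA was hosted by 25 of 31 sarcomere genes and 6 of 20 myogenic regulators. Of genes listed as markers of other cells, hosts were 7 of 12 for endothelium and 5 of 15 for fibroblasts. The counts were 3 of 10 for smooth muscle, 2 of 10 each for adipocytes and nerve and 1 of 12 for immune cells. Whether these genes are specific to those cells in muscle was not tested. The libraries held 35731 to 67061 junction reads and listed 2559 to 3543 circRNAs. Ovariectomized replicate 5 was the deepest, and results that rest on it are given with and without it. The exception is the relation with depth, where it was left out only together with sham replicate 3.

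Most single-library circRNAs had few reads. The median was 3 junction reads, 816 had 2, 843 had 3 and 613 had 4, while 100 (3.06%) had 10 or more and 21 had 15 or more. The highest had 42. Because reads and the number of libraries are linked through the selection, these counts are a description. Just outside the selection, the 1298 circRNAs listed in 2 libraries had a median of 4 reads per entry, and 23.8% of their entries were at 2 reads, against 816 of the 3270 single-library entries. For the 806 circRNAs listed in all 10 libraries the median was 17 reads per entry. Non-junction reads, which the deposited table counts beside junction reads without a definition in the sources used here, were 29.6 per junction read in the median single-library circRNA and 20.9 in the median more widely listed one.

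The number of single-library circRNAs was 205, 363, 311, 387 and 315 in sham replicates 1 to 5 and 271, 339, 272, 314 and 493 in ovariectomized replicates 1 to 5. Sham replicate 1 had the fewest and ovariectomized replicate 5 the most, and the other libraries of both groups overlapped. The means were 316.2 ± 70.0 (SD, n = 5) after sham surgery and 337.8 ± 91.4 (SD, n = 5) after ovariectomy, which did not differ beyond the spread (two-sided exact permutation p = 0.698, Benjamini-Hochberg adjusted p = 1 over 5 measures). As a share of the circRNAs listed in a library they made up 9.81% ± 1.25 and 10.5% ± 1.99 (SD, n = 5 each; exact permutation p = 0.627). Their share of junction reads was 2.83% ± 0.715 and 3.09% ± 0.526 (SD, n = 5 each; exact permutation p = 0.508). Exonic circRNAs made up 88.3% ± 2.11 and 88.4% ± 2.46 of them (SD, n = 5 each; exact permutation p = 0.937), and the share with an end used by a more widely listed circRNA was 34.6% ± 2.32 and 34.5% ± 2.21 (SD, n = 5 each; exact permutation p = 1). All 5 adjusted p-values were 1. When a library was left out, the single-library class was set anew among the remaining libraries, so circRNAs listed in 2 libraries could enter it. Without ovariectomized replicate 5 the means became 351.6 after sham surgery and 328.75 after ovariectomy. The difference in number thus turned from 21.6 to -22.9 (ovariectomized minus sham). The share of listed circRNAs then differed by -0.330 in place of 0.658 percentage points, and the share of reads by -0.0597 in place of 0.260. None of these differences passed the test. Without sham replicate 1 the difference in number was -10.7.

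Reads per single-library circRNA also set ovariectomized replicate 5 apart from the other libraries. Its median was 5 reads and 43 of its 493 had 10 or more, while the medians of the other libraries were 3 or 4 and at most 13 had 10 or more. In the same library the more widely listed circRNAs had a median of 9 reads, against 5 to 7 elsewhere. Across the 10 libraries the number of single-library circRNAs was related to junction reads with r = 0.703 (permutation p = 0.0415) and a Spearman rho of 0.321 (permutation p = 0.368), the 1 relation with depth that was computed. Without sham replicate 3 and ovariectomized replicate 5, the libraries farthest from the median depth, r was 0.176 (permutation p = 0.674). The relation was thus not seen among the other libraries. Sham replicate 3, the next deepest with 49887 reads, had 311 single-library circRNAs, below the mean of 327, so it did not carry the relation. Ovariectomized replicate 5 had the most of both, and leaving it out alone was not run. Within the groups r was 0.112 over the 5 sham and 0.944 over the 5 ovariectomized libraries. The latter includes replicate 5, and no value without it was computed. Per 1000 junction reads the counts ranged from 5.54 in sham replicate 1 to 10.2 in sham replicate 2, with ovariectomized replicate 5 at 7.35.

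**Figure D1:**
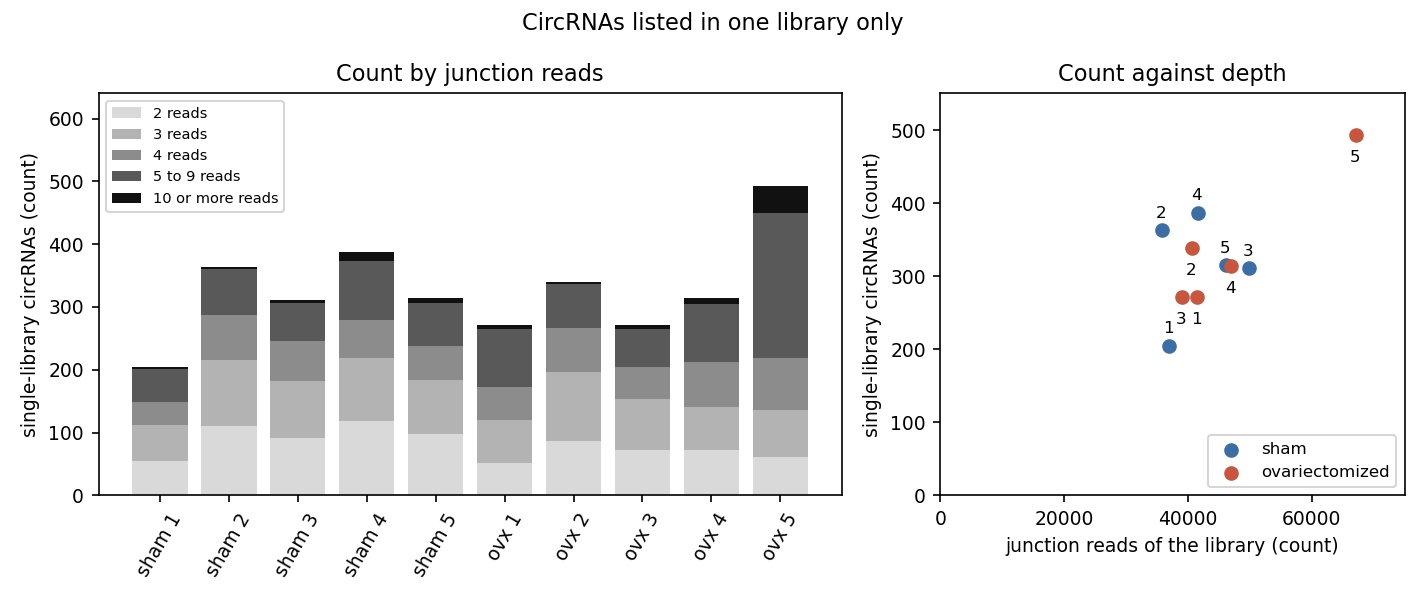
Left, the number of circRNAs listed in a single library, per library and stacked by junction reads; right, the same number against the junction reads of the library, with replicate numbers beside the points (ovx, ovariectomized). Ovariectomized replicate 5 has the most, 493, and the most junction reads, 67061, while sham replicate 1 has the fewest, 205.

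No single-library circRNA passed the authors' comparison, which could hardly call a circRNA with an entry in 1 library. Of the 3270, 0 had in the authors' deposited table a p-value under 0.05, where 1.35% of all 8721 circRNAs did (0.539% higher and 0.814% lower after ovariectomy), and the smallest p among them was 0.0745 with a smallest adjusted p of 0.966. Of the 1298 circRNAs listed in 2 libraries, 0 had a p under 0.05 in the authors' deposited table. Entries in 1 or 2 of 10 libraries leave such a comparison little to call. Both counts of 0 thus largely follow from the listing and are a description. The log2 fold changes that the authors' deposited table gives the single-library circRNAs, turned to ovariectomized over sham, ran from -5.42 to 5.40, and their sign is fixed by the group of the library that lists them. No further test of single circRNAs was run.

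By kind, 2893 single-library circRNAs were exonic, 256 intronic and 121 intergenic, as the deposited table classes them. Seen the other way, they made up 36.5% of all exonic, 46.8% of intronic and 48.8% of intergenic circRNAs. To compare them with the more widely listed circRNAs, both classes were reduced to 1 value in each library and the 10 within-library differences were tested by exact two-sided sign-flip permutation, with adjustment over 7 measures. The single-library circRNAs of the 10 libraries do not overlap. The more widely listed ones are largely the same in several libraries, so the differences are not fully independent. Each of these also counts in every library that lists it, so their values lean to the broadest circRNAs. The intronic share was 7.82% ± 1.52 among the single-library and 4.38% ± 0.268 among the more widely listed circRNAs (SD, n = 10), higher in 10 of 10 libraries (exact permutation, adjusted p = 0.00228). The intergenic share was 3.82% ± 1.30 against 2.10% ± 0.161, also higher in 10 of 10 libraries (exact permutation, adjusted p = 0.00228). Counted once each, 7.83% of single-library and 5.34% of more widely listed circRNAs were intronic, and 3.70% and 2.33% were intergenic.

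Single-library circRNAs more often had a single block, as the exon-like pieces that the table lists within each ring are called here, and their summed block length was shorter. Of the exonic ones, 869 (30.0%) had 1 block, 1191 (41.2%) had 2, 650 (22.5%) had 3, 159 (5.50%) had 4 and 24 (0.830%) had 5 or more, and the most was 6. Of the 5033 exonic more widely listed circRNAs, 17.6% had 1 block and 4.11% had 5 or more. Within libraries the single-block share was 30.1% ± 2.15 against 14.5% ± 0.500 (SD, n = 10; higher in 10 of 10; exact permutation, adjusted p = 0.00228). The spliced length, the summed length of the blocks, had a library median of 267.5 ± 10.3 against 322 ± 3.47 bases (SD, n = 10), shorter in 10 of 10 libraries (exact permutation, adjusted p = 0.00228). The genomic span from the first to the last base had a library median of 7064 ± 958 against 7961 ± 251 bases (SD, n = 10), shorter in 9 of 10 libraries (exact permutation, adjusted p = 0.0156). Sham replicate 3 went the other way, at 9300 against 8193 bases. The span difference lost its call without sham replicate 2 (-642 bases, adjusted p = 0.0586, exact permutation) and without ovariectomized replicate 2 (-643 bases, adjusted p = 0.0508). It was -576 bases when entries needed 3 reads (exact permutation, adjusted p = 0.0293) and -1447 bases among circRNAs of 2 or 3 reads (exact permutation, adjusted p = 0.0137), in place of -897. Individual single-library circRNAs ranged from 24 to 959 bases in spliced length and from 150 to 99304 bases in span.

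In many of them the blocks did not reach the junction. A block began at the first base and another, or the same one, ended at the last base in 1983 of the 3270 (60.6%) and in 4018 of the 5451 more widely listed (73.7%). Within libraries these shares were 60.7% ± 2.85 and 78.7% ± 1.10 (SD, n = 10), lower in 10 of 10, in a comparison added after the data were seen (exact permutation, adjusted p = 0.00391 over 2 added measures). Of the 869 exonic single-block circRNAs, 94 (10.8%) had a block that filled the ring from end to end, with a median spliced length of 308.5 bases. In 770 the block reached 1 end only. Those that did not reach both ends had a median spliced length of 137 bases within a median span of 7659 bases. Among the 888 more widely listed exonic single-block circRNAs the block also reached both ends in 12.7%.

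The same measures followed the number of libraries. From 1 over 2, 3 to 4 and 5 to 9 to 10 libraries, the share with blocks at both ends was 60.6%, 66.0%, 68.3%, 75.1% and 92.8%. The single-block share of exonic circRNAs was 30.0%, 23.0%, 21.4%, 16.5% and 5.69%, and the median spliced length was 268, 276, 288, 311 and 372 bases. The single-library class thus sat beside the class of 2 libraries in each of these, and the class of 10 libraries was the farthest away. Over the same classes the median reads per entry were 3, 4, 4, 6 and 17, so breadth and read number go together in these values. With both classes restricted to circRNAs of 2 or 3 reads in the library, the differences stayed past the test and were 12.2 percentage points for the single-block share and -32.6 bases for spliced length (exact permutation, adjusted p = 0.00684 for both). The difference in blocks at both ends was then -11.2 in place of -18.0 percentage points (exact permutation, adjusted p = 0.00781). The differences in the intronic and intergenic shares were then 2.36 and 1.27 percentage points.

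**Figure D2:**
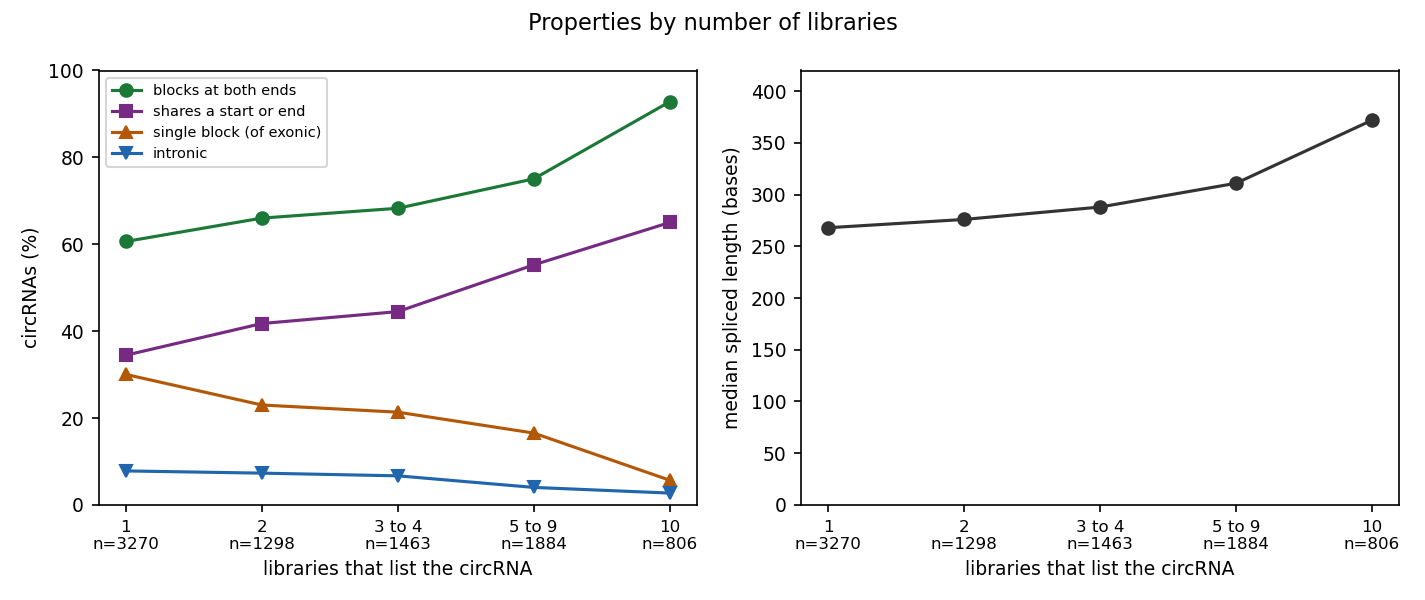
Left, the percentage of circRNAs with blocks at both ends, with a shared start or end, with a single block (of the exonic ones) and of the intronic kind; right, the median spliced length in bases, both against the number of libraries that list the circRNA, with the number of circRNAs (n) below each class. From 1 to 10 libraries the share with blocks at both ends goes from 60.6% to 92.8% and the median spliced length from 268 to 372 bases.

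Of the 3270 single-library circRNAs, 1127 (34.5%) used exactly the start or end of a more widely listed circRNA on the same strand. Of these, 523 shared the lower coordinate only, 496 the higher only and 108 both. By strand, 608 shared the splice acceptor side and 627 the donor side. A partner listed in the same library was present for 738 of the 1127 (65.5%), and 253 of the 3270 (7.74%) shared an end with a circRNA of all 10 libraries. Another 381 shared an end only with other single-library circRNAs, and 1762 (53.9%) shared neither end with any listed circRNA. Within libraries 34.5% ± 2.13 of single-library and 55.2% ± 0.447 of more widely listed circRNAs shared an end with another circRNA of 2 or more libraries (SD, n = 10), lower in 10 of 10 (exact permutation, adjusted p = 0.00228). Counted once each, 50.6% of the more widely listed circRNAs did so. Partners had to be listed in 2 or more libraries, the same listing that made the selection. The direction of this difference is therefore not independent of the selection. Among circRNAs of 2 or 3 reads the difference was -14.3 percentage points. By kind, an end was shared by 34.3% of the exonic single-library circRNAs against 51.2% of the more widely listed, by 44.1% against 45.7% of the intronic and by 18.2% against 37.0% of the intergenic ones. The gap was thus small among intronic circRNAs, and the differences by kind were not tested.

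**Figure D3:**
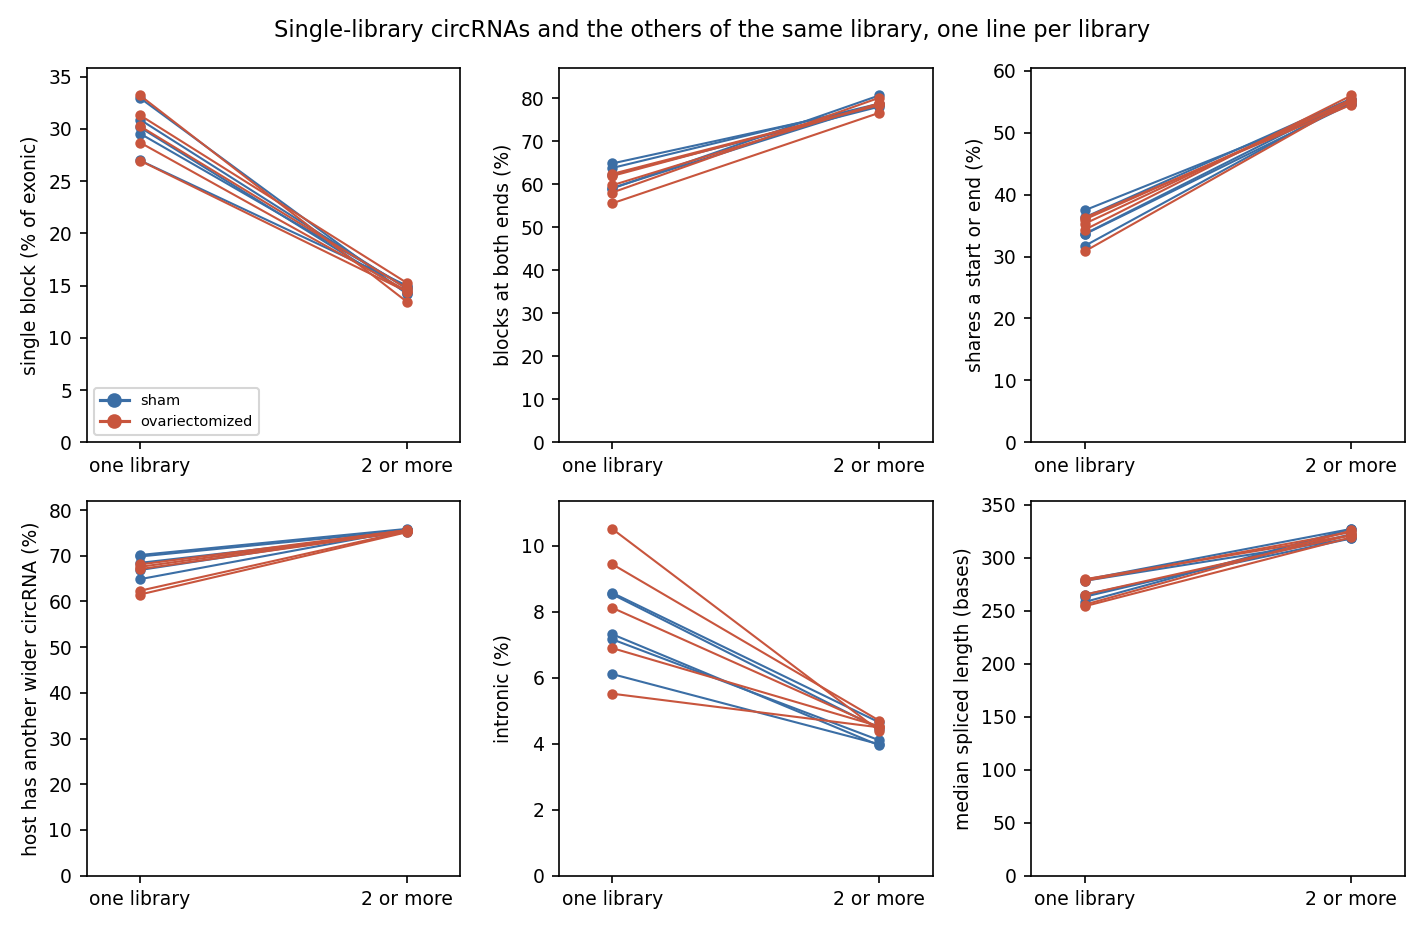
Each line joins, for a single library, the value among circRNAs listed only there (left point) and among the more widely listed circRNAs of that library (right point), for 6 properties in percent or bases. In all 10 libraries the single-block and intronic shares are higher and the other 4 values lower among the single-library circRNAs.

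Some single-library circRNAs joined ends that are each in use elsewhere. This held for 107 (3.27%), whose start and end belonged to different more widely listed circRNAs. The one with the most reads was novel_circ_0012457 of RYR1, the calcium release channel of the sarcoplasmic reticulum (chr14:47697282-47704532, plus strand, 3 blocks, 268 bases), with 15 reads in ovariectomized replicate 5. Its start partner, novel_circ_0012459, was listed in 9 libraries with up to 23 reads, and its end partner, novel_circ_0012461, had 2 to 31 reads in all 10 libraries. In ovariectomized replicate 5 these partners had 23 and 31 reads, so all 3 rings were listed side by side there.

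In TTN, novel_circ_0002422 (chr2:131453733-131460171, plus strand, 6 blocks, 513 bases) had 13 reads in ovariectomized replicate 1. Its end partner novel_circ_0002443 was abundant, with 362, 276, 235, 90 and 254 reads in the sham libraries (replicates 1 to 5, in order) and 162, 19, 117, 239 and 88 in the ovariectomized ones. Its start partner novel_circ_0002423 was listed in 4 libraries with at most 8 reads. The single-library ring thus ended where a ring of every library ended, at a small part of its reads.

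ZNF148, which encodes a zinc finger transcription factor, gave novel_circ_0000573 (chr1:190608444-190632986, 2 blocks) with 11 reads in ovariectomized replicate 2. There its start partner novel_circ_0000572, which was listed in all 10 libraries with 9 to 56 reads, had 10, and its end partner was not listed. All 6 single-library circRNAs of ZNF148 shared an end with a more widely listed one. For AGTPBP1, which encodes a carboxypeptidase that acts on tubulin, novel_circ_0003606 (chr2:34080586-34081298, 1 block of 713 bases) had 10 reads in sham replicate 4, where its end partner, listed in all 10 libraries, had 13 and its start partner had 3. For GOLM2, novel_circ_0007859 (chr7:100812637-100836113, 3 blocks) had 10 reads in ovariectomized replicate 5, where both partners were listed, with 10 and 39 reads.

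Few were near copies of another ring. Both ends lay within 5 bases of a more widely listed circRNA in 22 (0.673%), against 60 (1.10%) of the more widely listed, and for 11 of the 22 that circRNA was listed in the same library. The 5 with the most reads came from CLSTN2, USP24, SCAF8, GFM2 and PRRC2B and had 5 to 7 reads. In CLSTN2, which encodes a calsyntenin, novel_circ_0000989 had 7 reads in ovariectomized replicate 4 where its copy, 4 bases longer at the upper end, had 9. In USP24, a deubiquitinase gene, novel_circ_0001357 had 7 reads in ovariectomized replicate 5, where the copy that ends 3 bases away was not listed. No single-library circRNA had the exact coordinates of a more widely listed one on the other strand.

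Relative to the most-read more widely listed circRNA of their host, 1073 of 2091 single-library circRNAs (51.3%) lay apart from it in the gene, 354 lay inside it, 417 around it and 247 overlapped it in part.

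Host genes were given for 3149 single-library circRNAs, from 2034 of the 3435 hosts. Of these hosts, 1414 had 1, 383 had 2 and 237 had 3 or more, and in 559 of the 620 hosts with 2 or more they came from different libraries. For 872 hosts (42.9%) no more widely listed circRNA was present at all. Within libraries the share whose host had another circRNA of 2 or more libraries was 66.7% ± 2.92 against 75.5% ± 0.245 for the more widely listed (SD, n = 10; lower in 10 of 10; exact permutation, adjusted p = 0.00228). This measure also rests on the listing in 2 or more libraries, so its direction is not independent of the selection. The 10 hosts with the most gave 155 of the 3270 (4.74%), and they also gave 134 of the 5451 more widely listed (2.46%).

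TTN, which encodes the giant elastic protein titin of the sarcomere, led with 75 single-library circRNAs beside 50 more widely listed ones. The libraries held 7, 4, 3, 27 and 8 of them in sham replicates 1 to 5 and 2, 11, 4, 4 and 5 in ovariectomized replicates 1 to 5. Sham replicate 4 held the most by far, and the other libraries of both groups overlapped. In reads the TTN ones were small, with 401 against 12295 junction reads, and 7 of the 75 had 10 or more. Of the 75, 42 had a single block, and their median span was 778 bases against 1409.5 for the more widely listed TTN circRNAs. Only 12 of the 75 shared an end with a more widely listed circRNA. Sharing needed the same strand, and 27 of the 75 lay on the minus strand, beside 4 of the 50 more widely listed ones.

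NEB, which encodes nebulin, the thin filament protein of the sarcomere, came next with 26 single-library and 25 more widely listed circRNAs (160 and 1535 reads). It held the single-library circRNA with the most reads of all, novel_circ_0002929 (chr2:158030911-158037106, plus strand, 6 blocks, 562 bases), with 42 reads, all from ovariectomized replicate 1. Neither of its ends was used by a more widely listed circRNA. Ovariectomized replicate 1 held 6 of the 26 NEB circRNAs with 79 of their 160 reads, and the other libraries held 1 to 4 each.

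MLIP, which encodes a lamin-interacting protein of muscle, gave 6 single-library circRNAs with 51 reads, all in ovariectomized libraries and 4 of them in replicate 4. Most of those reads, 28, belonged to novel_circ_0015028 (chr20:6452880-6461110, minus strand, intronic, 2 blocks, 243 bases), the intronic one with the most reads. The 4 more widely listed MLIP circRNAs had 577 reads and were present in both groups, with 36 to 121 reads per library after sham surgery and 25 to 79 after ovariectomy. Over all single-library circRNAs 51.7% came from ovariectomized libraries. Of the 40 hosts with 5 or more, 3 had all of them in ovariectomized and 2 all of them in sham libraries, so a host confined to 1 group occurred in both directions, and no test of this was run.

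The other leading hosts had 6 to 8 single-library circRNAs with 24 to 32 reads in all. ABCC9, a subunit gene of ATP-sensitive potassium channels, had 8. BRWD1, a bromodomain gene, SYNE1, which encodes the nuclear envelope protein nesprin, VWA8, and DZIP3, a ubiquitin ligase gene, had 7 each. UTRN, which encodes the dystrophin relative utrophin, and CHD2, a chromatin remodeler gene, had 6 each. An end was shared with a more widely listed circRNA by 5 of 7 from BRWD1 and by 0 of 7 from DZIP3. A further host with 6, outside the naming rule and chosen after its values were seen, was DYNC2H1, a dynein motor gene of cilia. Its 6 single-library circRNAs had 25 reads and the 1 more widely listed had 6.

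**Figure D4:**
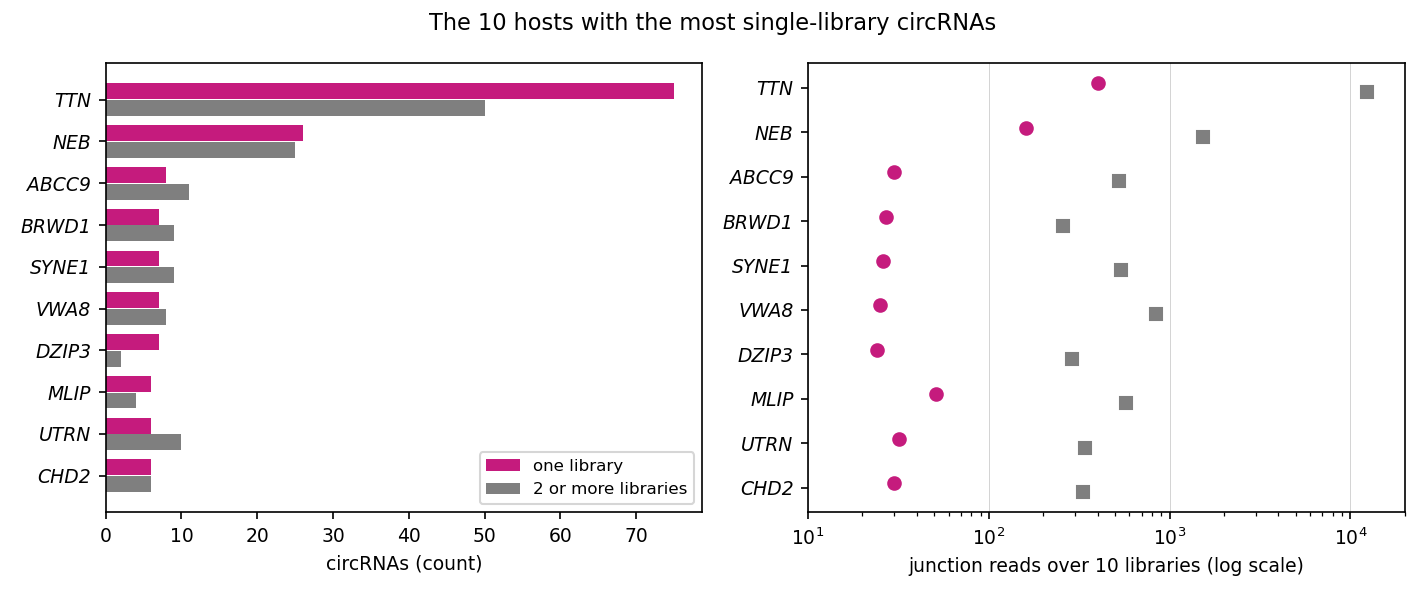
Left, the number of circRNAs listed in a single library and in 2 or more libraries for the 10 hosts with the most single-library circRNAs; right, the junction reads of both classes summed over the 10 libraries, on a log axis. TTN has 75 single-library circRNAs with 401 reads beside 50 more widely listed ones with 12295 reads.

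Hosts that had only 1 listed circRNA, and that in 1 library, included some with many reads. The TBC1D8 circRNA novel_circ_0004081 (chr3:100416020-100427566, 1 block of 119 bases) had 17 reads in ovariectomized replicate 5. The PALM2AKAP2 circRNA novel_circ_0002632 (chr2:13383780-13384475) had 16 reads in sham replicate 3 and filled its ring with 1 block of 696 bases. It had 11 non-junction reads, fewer than its junction reads, as did 97 (2.97%) of the single-library and 2.62% of the more widely listed circRNAs. CSRP2, which encodes a LIM domain protein, gave novel_circ_0004213 (chr3:112763144-112764018) with 16 reads, LOC105608446 gave novel_circ_0012508 (chr14:53467227-53467625) with 16, and SCARB2, which encodes a lysosomal membrane protein, gave novel_circ_0007761 (chr6:91811284-91824929) with 14, all in ovariectomized replicate 5.

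The remaining single-library circRNAs with the most reads came from varied hosts. JADE1, which encodes a subunit of a histone acetyltransferase complex, gave novel_circ_0013526 (chr17:29222555-29232784, 4 blocks) with 18 reads in ovariectomized replicate 5. It shared its end with a circRNA of 4 libraries that had 3 reads there. ZYG11B, which encodes a substrate receptor of a ubiquitin ligase, gave novel_circ_0001301 (chr1:27186803-27187557, 1 block of 755 bases) with 17 reads in ovariectomized replicate 3. LOC121820153 gave novel_circ_0008805 (chr8:15056314-15071229, 1 block of 60 bases) with 19 reads in ovariectomized replicate 5, where the more widely listed circRNA with the same end had 11. KBTBD12 gave the intronic novel_circ_0014677 (chr19:59501751-59503616) with 16 reads in sham replicate 2, and LOC101120681 the intronic novel_circ_0011511 (chr12:62890746-62893294) with 12 in sham replicate 4. MTHFD1, an enzyme gene of folate metabolism, gave a ring of 6 blocks, novel_circ_0008563 (chr7:74643854-74658087), with 5 reads in sham replicate 2. SPIDR, a DNA repair gene, gave novel_circ_0009602 (chr9:32290566-32380700), which spans 90135 bases with a single block of 180 and had 11 reads in ovariectomized replicate 4.

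Of the 121 intergenic single-library circRNAs, 12 (9.92%) had 10 or more reads, beside 2.77% of the exonic and 3.13% of the intronic ones, a difference that was not tested. The 12 include those of 19, 19, 17, 15 and 11 reads from a chromosome 11 stretch described below, where read placement is uncertain. The one with the most was novel_circ_0014809 (chr20:25248292-25294103, plus strand, 1 block of 282 bases), with 28 reads in sham replicate 1. After 3 of 19, 19 and 17 reads on chromosome 11 came novel_circ_0001191 (chr1:264499970-264526494, minus strand, 1 block of 102 bases), with 16 in sham replicate 2. The longest spans were also intergenic, 99304 bases for novel_circ_0010786 and 97171 bases for novel_circ_0012349, with 4 and 2 reads in sham replicate 5.

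A group of 13 intergenic single-library circRNAs lay together on chromosome 11 between 29208522 and 29329833, all on the minus strand. They came from 8 libraries, 5 of the 13 from ovariectomized ones, and held 123 reads. The genes of fast myosin heavy chains MYH1 and MYH2 each hosted 1 listed circRNA in this stretch, also on the minus strand. Of the 13, 10 overlapped the MYH1 circRNA and 6 the MYH2 circRNA, 4 of them both, and 1 overlapped neither. Reads were 19 for novel_circ_0010835 in sham replicate 5, 19 for novel_circ_0010836 in sham replicate 4, 17 for novel_circ_0010793 in ovariectomized replicate 3 and 15 for novel_circ_0010796 in ovariectomized replicate 1, and 2 to 11 for the rest. Their spans ran from 25048 to 99304 bases, with 7 of the 13 between 25 and 32 kb, while their spliced lengths were at most 959 bases. Of the 13, 3 shared an end with 1 of the 9 more widely listed intergenic circRNAs of the same stretch, which held 547 reads. The fast myosin genes are closely similar in sequence, so the placement of reads among them is uncertain and was not tested.

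Another group of 8 lay within 5 kb on chromosome 21 (40120692 to 40125402), 5 on the plus and 3 on the minus strand, with 2 to 9 reads each from 6 libraries. Most had a single block, none shared an end with a more widely listed circRNA, and the nearest host on the upper side was ACTN3, which encodes a fast fiber actinin. A further group of 3 lay on chromosome 5 (102504586 to 102639472), with 2, 4 and 8 reads.

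Strand set a small number apart. Of the 2091 single-library circRNAs whose host had a more widely listed circRNA, 34 (1.63%) were assigned to the strand opposite to the most-read one, against 8 of 2761 (0.290%) of the other more widely listed circRNAs. Of the 34, 27 belonged to TTN, 3 to FLNC, 2 to NEB and 1 each to CCNG1 and ATP2A1. Of the 34, 25 (73.5%) were listed in sham replicate 4, 21 of them from TTN. There they made up 9.73% of the 257 considered (95% exact binomial interval 6.39% to 14.0%, counting error only), against 0 to 0.980% in the other libraries. The interval treats circRNAs of the same host as independent, and it is given for the library with the highest share. The reference strand came from a more widely listed circRNA, so the direction of the within-library difference is not independent of the selection. That difference was 1.27 percentage points, positive in 7 of 10 libraries, in a comparison added after the data were seen (exact permutation, adjusted p = 0.0156). It was 0.449 without sham replicate 4 (exact permutation, adjusted p = 0.0391) and 0.230 with TTN left out, which did not pass (exact permutation, adjusted p = 0.383).

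In sham replicate 4, opposite-strand circRNAs of TTN held 140 junction reads beside 1190 on the strand of the leading TTN circRNA, or 10.5% (95% exact binomial interval 8.93% to 12.3%, counting error only, with reads not being independent molecules). The other 4 sham libraries had 0 to 15 opposite-strand TTN reads and the ovariectomized ones 0 to 12, beside 1084 to 1656 same-strand reads. The one with the most reads was novel_circ_0002576 (chr2:131567132-131567570, minus strand, 1 block of 439 bases that fills the ring), with 27 junction and 20430 non-junction reads. The next in sham replicate 4 were novel_circ_0002255 and novel_circ_0002229, with 9 and 8 reads. TTN reads on its usual strand did not set sham replicate 4 apart, as its 1190 lay within the range of the other libraries. The labels' protocols name a directional kit, but how strand was assigned to a circRNA is not given in the sources used here, so RNA from the opposite strand and wrongly assigned strand cannot be told apart.

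**Figure D5:**
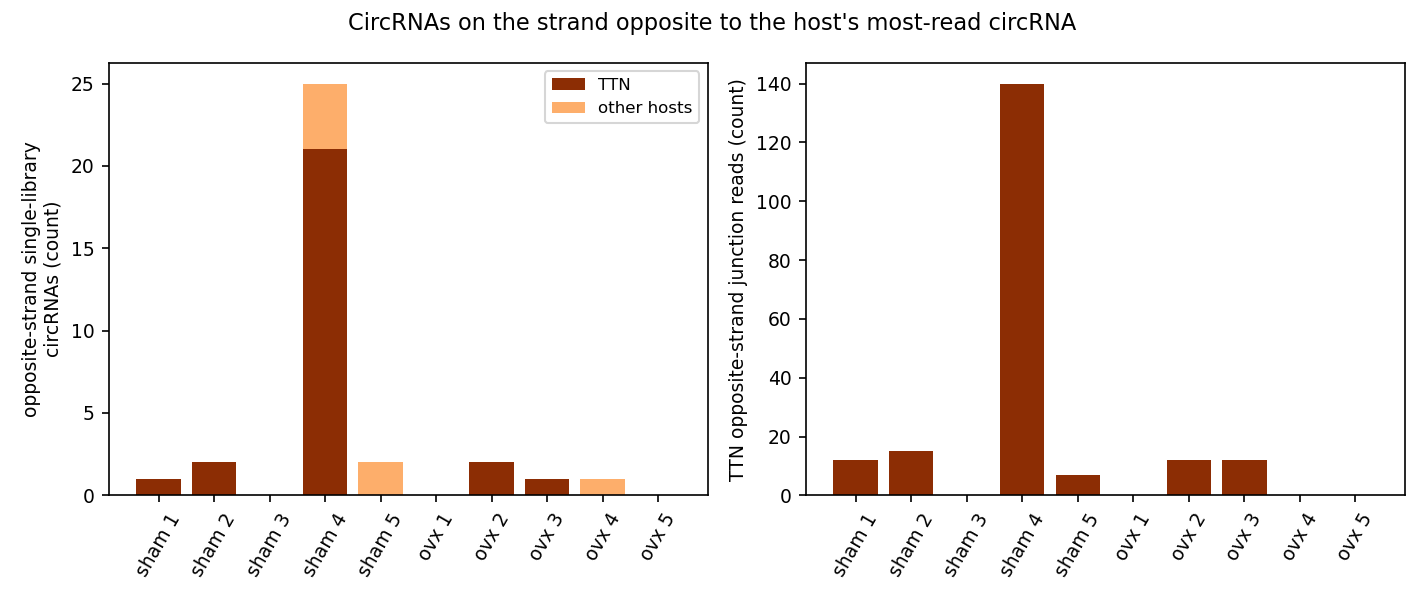
Left, the number of single-library circRNAs per library that lie on the strand opposite to the most-read circRNA of their host, for TTN and other hosts; right, the junction reads of all TTN circRNAs on that opposite strand. Sham replicate 4 (sham 4) has 25 such circRNAs and 140 such TTN reads, and the other libraries have at most 2 and 15.

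The gene lists describe which hosts gave single-library circRNAs. Of 31 sarcomere genes, 16 hosted one and 18 a more widely listed one, and 7 (ACTN3, DES, MYH1, PDLIM5, TPM2, TPM3 and XIRP2) hosted none but single-library ones. The list gave 138 single-library and 110 more widely listed circRNAs, a single-library share of 55.6% beside 37.5% over all circRNAs, and TTN and NEB supplied 101 of the 138. Of 22 genes of the membrane, dystrophin complex and costamere, 11 hosted one, led by SYNE1 and UTRN, and the single-library share was 36.4%. Of 20 triad and calcium handling genes 7 did, with 4 from ASPH, which encodes junctin among other products, and 3 from RYR1, the latter all in ovariectomized replicate 5. Of 20 myogenic regulators 3 did, with 1 each from TEAD1 and MEF2C, transcription factor genes of muscle. Their list had the lowest single-library share among the muscle lists, at 3 of 20 circRNAs.

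Of 26 energy metabolism genes 10 hosted a single-library circRNA, with 5 from PHKA1, a subunit gene of phosphorylase kinase, and ALDOA, CKM and ENO3 hosted none but single-library ones. Of 26 insulin and growth signalling genes 7 did, with 2 each from RICTOR, of the mTOR complex, and IGF1R, the receptor of insulin-like growth factor. Of 29 MAPK pathway genes 8 did, led by the exchange factor gene SOS2 and the kinase gene BRAF with 4 each, and all 8 also hosted a more widely listed circRNA. Of 31 chromatin regulators 20 did, with 6 each from CHD2 and the methyltransferase gene KMT2C, and of 23 ubiquitin ligase genes 12 did, with 4 from UBR3 and 3 from HUWE1. Their single-library shares were 40.6% and 34.1%.

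Of 18 estrogen receptor and target genes, 7 hosted a single-library circRNA, and ESR1, NCOA2 and PGR hosted no other. The corepressor gene NCOR1 gave 4, all in ovariectomized libraries, and the orphan receptor gene ESRRG gave 2, 1 in each group. The ESR1 circRNA novel_circ_0009386 (chr8:76734706-76735041, plus strand, 1 block of 336 bases that fills the ring) had 5 reads in ovariectomized replicate 2. ESR1 encodes the nuclear estrogen receptor alpha. The estrogen receptor genes ESR2 and GPER1 and the kinase gene MAPK15 had no listed circRNA, and FAM171A1 had 3 more widely listed and 0 single-library ones.

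Genes listed here as markers of other cell types were also among the hosts. Single-library circRNAs came from 5 of 12 endothelial genes (with 2 each from TEK and PECAM1, both from ovariectomized libraries), 2 of 10 smooth muscle and pericyte genes (ABCC9 and MYH11), 2 of 15 fibroblast and matrix genes (FBN1 and COL14A1), 2 of 10 adipocyte genes (ACACB and PPARG), 2 of 10 nerve and Schwann cell genes and 1 of 12 immune cell genes (MRC1). The nerve and immune lists had no more widely listed circRNA. ABCC9 gave 8 of the 9 from the smooth muscle list and ACACB 3 of the 4 from the adipocyte list. Whether the listed genes are specific to those cells in muscle was not tested. Gene length and exon number were not taken into account in these counts, and the share of other cells in the samples was not tested.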

How the data were processed

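CircRNAs were profiled in 5 sham and 5 ovariectomized libraries, grouped by their titles. A directional kit was used, per the labels' protocols. The submitters' processing notes name HISAT2. What called the circRNAs, the build, annotation and filters: not given in the sources used here. The deposited table packs whole-number junction read and non-junction read counts, span and spliced length into lists by sample name, and its smallest junction count is 2. Its lists hold 10 further sample names that match none of these libraries, which were left out. The authors' second table gives, per the file headers, a log2 fold change and raw and adjusted p-values, quoted as deposited.

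Coordinates follow the files, counted from 1. Chromosome numbers and some symbols came from the ARS-UI_Ramb_v3.0 gene table, in which 3134 of the 3149 given host IDs of single-library circRNAs were found. For circRNAs with several host IDs the first was taken. No sequence is shown, as no genome of the files' build was used here.

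The members, lists and tests were chosen with earlier results of these data known. Sham and ovariectomized libraries were compared by exact permutation over all 252 relabellings (smallest p 0.00794). Single-library and more widely listed circRNAs were compared within libraries by exact sign-flip permutation over 1024 flips (smallest p 0.00195). All tests were two-sided, with Benjamini-Hochberg adjustment and a threshold of 0.05. The depth relation used 100000 permutations. Python 3.11.15, numpy 2.4.6, pandas 2.3.3 and scipy 1.17.1 were used, and the functions were tested on simulated data.

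Named are the 12 single-library circRNAs with the most reads, the most-read one of each library, the 10 hosts with the most, the 3 most-read intronic and intergenic ones, the 3 with the longest span and the 3 with the most blocks. Also named are up to 5 near copies (within 5 bases), up to 5 that join ends used elsewhere, up to 5 that are the only circRNA of their host, 2 hosts per gene list, and FAM171A1, MAPK15, ESR1, ESR2 and GPER1. Of the hosts named by this rule from the gene lists, 2 are not reported here. Same-numbered libraries were checked for pairing. Their correlations over 806 circRNAs ran from -0.0513 to 0.103, and 1 of 5 exceeded 0.1, so no pairing was assumed.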

Additional observations from a re-analysis of the deposited data

Results flagged for a closer look

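Of 36 groups of 5 library values checked, 5 had a library far from the other 4 of its group. Chance alone gives about 1 in 20 for independent values. These groups are overlapping measures of the same 10 libraries, so no excess over chance is shown. Ovariectomized replicate 5, the deepest library, accounted for 3 of the 5. Its single-library circRNAs made up 13.9% of its listed circRNAs, against 9.18% to 10.4% in the other ovariectomized libraries. They took 4.00% of its junction reads, against 2.69% to 3.03%, and held 2683 reads, against 1049 to 1327. In sham replicate 3 the median genomic span of single-library circRNAs was 9300 bases, against 5676 to 6688 in the other sham libraries. In sham replicate 4, 9.73% of them lay on the strand opposite to the most-read circRNA of their host, against 0 to 0.980% in the other sham libraries, and most of these came from TTN. What sets these libraries apart was not tested.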

How the results depend on the processing

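The 6 planned within-library differences other than span kept their direction and stayed past the test under every alternative run: entries of 3 or more reads only, circRNAs of 2 or 3 reads only, a comparison class of 5 or more libraries and leaving out each library. Ends counted as shared within 5 bases, run for shared ends alone, gave -20.6 percentage points. For each library left out, the single-library class was set anew among the remaining libraries. Left out in turn, the libraries gave ranges of 3.20 to 3.65 percentage points for the intronic share, 1.31 to 1.90 for the intergenic, 14.8 to 15.5 for the single-block share, -20.9 to -19.3 for shared ends, -9.33 to -7.20 for hosts with another circRNA and -18.1 to -17.3 for blocks at both ends. Spliced length ranged from -57.2 to -52.9 bases, and span from -1078 to -642, where 2 of the 10 values missed the threshold. Span was -576 with entries of 3 or more reads and -1447 among circRNAs of 2 or 3 reads, both past the test. The opposite-strand difference ranged from 0.449 to 1.45, and it missed the threshold at 0.857 among circRNAs of 2 or 3 reads and at 0.230 without TTN.

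Differences between the groups passed in no setting. Here too the single-library class was set anew when a library was left out. In number the range without 1 library was -22.9 to 38.9, in share of listed circRNAs -0.330 to 1.00, in share of reads -0.0597 to 0.567, in exonic share -0.470 to 0.899 and in shared ends -0.875 to 1.88. Per 1000 junction reads the difference in number was -0.441. Entries of 3 or more reads gave -0.120 for the exonic share and 0.668 for shared ends, and single-library circRNAs of 3 or more reads gave -0.810 and 0.144. Without the most abundant circRNA in the totals, the difference in read share was 0.0488. With a replicate block (5 pairs of the same number), whose smallest possible exact permutation p is 0.0625, the difference in number was 21.6 (exact permutation p = 0.75), and no call changed in the other 4 measures. The causes of these changes were not tested. The smallest listed count was 2 reads, and 50.7% of single-library circRNAs had 2 or 3. The filters are not given, so a ring listed in a single library may be present elsewhere without an entry.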
